A study of Mus musculus with 12 samples.

Results

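The 8 genes described here, Sod2, Nqo1, Hmox1, Gclc, Gclm, Txnrd1, Srxn1 and Prdx1, encode antioxidant and detoxifying enzymes, and were taken by name from 16593 named genes on an Illumina mouse bead array. They are measured by 12 of the 23978 probes with a single gene symbol, and where a gene had several probes the brightest was used. RNA came from mouse embryonic fibroblasts (MEFs), cells grown from whole embryos, wild-type for both genes, lacking Sirt6 (Sirt6-/-) or lacking Sirt6 and RelA together (Sirt6-/-RelA-/-), 3 genotypes in all. Each genotype was measured at 0, 1.5, 6 and 24 h of the inflammatory cytokine TNF-α at 20 ng/mL, with 1 array for each of the 12 conditions, so that no condition had a replicate. Sirt6 encodes a histone deacetylase that binds the NF-κB subunit RelA, and both mutant genotypes lack it. The wild-type cells carried no deletion, and no RelA single knockout is among the arrays. The comparisons ask how the loss of Sirt6 changes these genes, whether the further loss of RelA changes them again, and how each genotype responds to TNF-α.

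Most genes of this group are textbook targets of NRF2 (gene Nfe2l2), a transcription factor that KEAP1 marks for degradation until oxidants or electrophiles release it. NRF2 then pairs with a small MAF protein on antioxidant response elements, sites that the repressor BACH1 can also occupy. Sod2, mitochondrial superoxide dismutase, is instead best known as an NF-κB target induced by TNF-α, and protects mitochondria from the superoxide that inflammatory signals raise.

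Promoter sequences were looked at for the short sequences that these factors are known to prefer. RefSeq windows of 300 bases (250 before to 50 after a start, build GRCm38.p6) were found for 6 of the 8 genes, 8 windows in all, with 3 alternative starts for Txnrd1. Hmox1 and Gclc had no window among those used. The core TGACNNNGC of the antioxidant response element was searched on both strands. It was present in 4 of the 8 windows (of Srxn1, Gclm, Prdx1 and 1 of Txnrd1) and in 12.4% of all 32851 windows of this length. The only string searched for the κB sequence, GGGNNNTTCC, was present only in the same Txnrd1 window among the 8, and in 5.56% of all windows. A match describes the letters and not a bound site. The 250 bases before the start are shown for 4 genes on which the results below turn, on the strand of the gene, with matches in capitals.
Gclm (chr3:122245307-122245556, plus strand): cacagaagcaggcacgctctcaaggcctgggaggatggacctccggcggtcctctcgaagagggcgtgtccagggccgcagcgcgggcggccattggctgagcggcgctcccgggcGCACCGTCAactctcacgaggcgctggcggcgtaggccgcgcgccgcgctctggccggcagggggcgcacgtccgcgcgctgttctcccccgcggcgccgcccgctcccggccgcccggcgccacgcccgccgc
Txnrd1 (chr10:82858956-82859205, plus strand): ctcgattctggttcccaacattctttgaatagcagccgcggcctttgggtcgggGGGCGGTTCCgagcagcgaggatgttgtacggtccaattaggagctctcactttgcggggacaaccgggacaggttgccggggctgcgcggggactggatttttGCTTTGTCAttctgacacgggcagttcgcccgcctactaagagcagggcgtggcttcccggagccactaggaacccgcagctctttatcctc
Prdx1 (chr4:116685349-116685598, plus strand): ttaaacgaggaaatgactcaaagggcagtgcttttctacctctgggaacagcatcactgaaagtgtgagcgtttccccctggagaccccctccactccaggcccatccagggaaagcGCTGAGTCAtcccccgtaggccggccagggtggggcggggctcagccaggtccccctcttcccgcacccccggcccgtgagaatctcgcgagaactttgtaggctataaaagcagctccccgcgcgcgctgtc
Sod2 (chr17:13007589-13007838, plus strand): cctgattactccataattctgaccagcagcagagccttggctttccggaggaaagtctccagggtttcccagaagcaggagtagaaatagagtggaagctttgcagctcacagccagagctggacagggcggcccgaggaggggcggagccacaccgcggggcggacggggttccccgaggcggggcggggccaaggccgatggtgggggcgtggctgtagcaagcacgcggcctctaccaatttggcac
The capitals in Gclm mark GCACCGTCA, the core read on the opposite strand, 134 to 126 bases before the start. In Prdx1 they mark GCTGAGTCA, 133 to 125 bases before the start. In Txnrd1 the first run of capitals is the κB match GGGCGGTTCC, 196 to 187 bases before the start, and the second is the core match GCTTTGTCA, 92 to 84 bases before it. The Sod2 stretch held neither of the strings searched. It does hold ggggttcccc, which the κB string used here does not cover. Other forms of the κB sequence were not searched, so a stretch without a match is not shown to lack a κB site. The match in Txnrd1 is likewise not shown to be a κB site, and Txnrd1 and Sod2 are not told apart by this search. The Nqo1 window and the other windows of Txnrd1 held neither as well.

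The labels were looked at first. The Sirt6 probe read 37.6 to 44.2 on the wild-type arrays and -8.50 to 12 on the arrays of both mutants. For Rela, wild-type cells read 674 to 1303, Sirt6-/- cells 1025 to 1446 and Sirt6-/-RelA-/- cells 172 to 187. Fibroblast markers were measured on every array (9 of 10 listed had a probe and all 9 were tested), and summed to 27518 to 33471 for wild-type cells, 20053 to 25987 for Sirt6-/- cells and 25330 to 30693 for Sirt6-/-RelA-/- cells. Of these, 5 were called lower and 1 higher when Sirt6-/- cells were set against wild-type cells, where 17% and 25.1% of all genes were. Pdgfra was at 135 to 162 against 17.1 to 35.2 and Lum at 79.6 to 171 against 19.0 to 30.5 (wild type first). Both reached 100, the level needed for a test, only on wild-type arrays, so that they were tested through the genotype in which they were high. The 5 called lower are therefore not read against the 17% of all genes. Dcn ran the other way, at 155 to 291 in wild-type and 268 to 449 in Sirt6-/- cells. Markers of other cells moved with genotype too. Of 12 macrophage markers 9 had a probe, and they summed to 1374 to 2431 for wild-type cells, 333 to 663 for Sirt6-/- cells and 603 to 804 for Sirt6-/-RelA-/- cells, with Ptprc, Itgam and Fcer1g under 16 everywhere. Of 12 skeletal muscle markers 11 had a probe, and their sum was 2772 to 4111, 9432 to 11288 and 6716 to 8520 in the same order, with Myod1 and Ckm under 16 everywhere. Most of that sum in Sirt6-/-RelA-/- cells is Acta1 (6053 to 7828). Against wild-type cells, all 7 muscle markers tested were called higher for Sirt6-/- cells (median 3.57 in log2 units) and 2 of 7 (Acta1 and Des) for Sirt6-/-RelA-/- cells (median 0.07). Myl1, Actc1, Tnnc1, Tnnc2 and Tnnt1 reached 100 only on Sirt6-/- arrays, so they were tested through the genotype in which they were high. These counts and medians are therefore not read against the 25.1% and 15.3% of all genes called higher. Of 6 epithelial markers 5 had a probe, and they summed to 113 to 173, 340 to 384 and 157 to 200 in the same order, with Cdh1 under 16 everywhere and Cldn4 at 142 to 219 on the Sirt6-/- arrays against 5.11 to 23.3 on the others. The part of these cells in any result below was not tested. In bulk RNA, fewer cells of a type and less RNA per cell cannot be told apart. The wild-type 0 h array stood apart from its genotype, with a mean correlation of 0.967 with the other wild-type arrays over 6096 genes against a median of 0.985 over all 12 arrays. Differences of the 7 tested genes from wild-type cells, and the number of list genes called, are also given without it. Percent changes of wild-type cells are all taken from it and have no value without it.

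Values are linear intensities, background subtracted and scaled by the authors, and a level of one probe cannot be set against that of another. Genes that reached 100 on any array were tested, 6096 in all, of which 7 were in this group. Gclc never reached 100 and was not among the 6096 genes. Nqo1 reached 100 only on Sirt6-/-RelA-/- arrays, so that it passed through the genotype in which it was high. Genotypes were compared with limma across all 12 arrays with time as a term, and a gene was called at a Benjamini-Hochberg adjusted p under 0.05 over all 6096 genes. With 1 array a condition, these p-values measure how steady a difference was over 4 times of what may be 1 culture a genotype, and not variation between embryos. Below, the loss of RelA names the comparison of Sirt6-/-RelA-/- with Sirt6-/- cells, which also differ in the Y-linked transcript Eif2s3y.

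**Figure D1:**
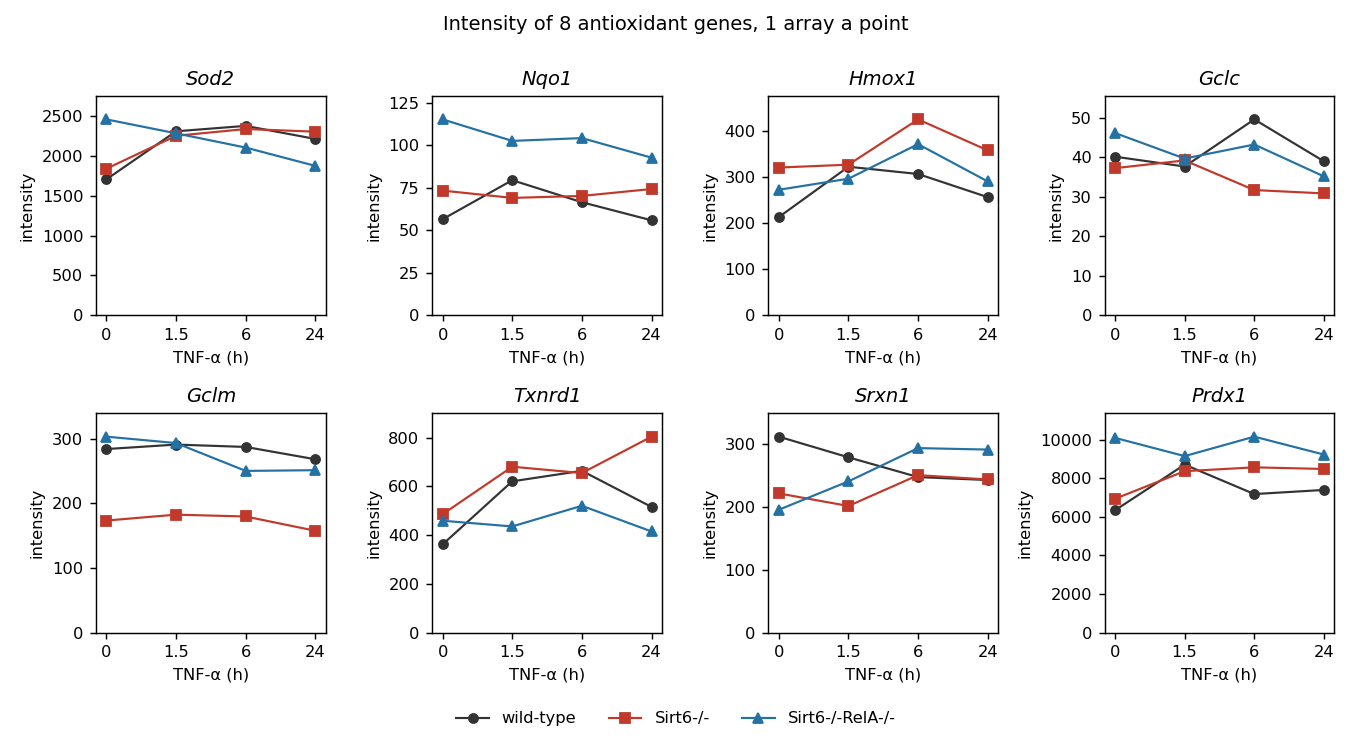
Intensity (linear, y axis from 0, a scale for each gene) of the 8 genes at 0, 1.5, 6 and 24 h of TNF-α (x axis, evenly spaced), with 1 array a point and a line for each genotype. Gclm was lowest on all 4 Sirt6-/- arrays (158 to 183), Nqo1 was highest on all 4 Sirt6-/-RelA-/- arrays (92.7 to 115), and Sod2 started highest and ended lowest in Sirt6-/-RelA-/- cells.

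Of the genes of glutathione synthesis, Gclm was lower in Sirt6-/- cells than in both other genotypes. It encodes the modifier subunit of glutamate-cysteine ligase, the rate-limiting enzyme of glutathione synthesis. Its intensities at 0, 1.5, 6 and 24 h were 284, 291, 287 and 268 in wild-type cells. They were 174, 183, 180 and 158 in Sirt6-/- cells, and 303, 293, 250 and 251 in Sirt6-/-RelA-/- cells. Every Sirt6-/- array lay below every array of the other genotypes, and the wild-type and Sirt6-/-RelA-/- arrays overlapped. Between wild-type and Sirt6-/- cells Gclm fell by 0.71 in log2 units at 4 of 4 times, with a standard error of 0.09 and a limma adjusted p of 5.89e-05. With the loss of RelA it rose by 0.66 at 4 of 4 times, with a standard error of 0.09 and an adjusted p of 0.000162. Sirt6-/-RelA-/- cells differed from wild-type cells by -0.05 (95% interval -0.25 to 0.16, adjusted p = 0.758). Both calls held under all 25 alternative settings run, and without the wild-type 0 h array the first difference was -0.73 (adjusted p = 6.22e-05).

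Gclc encodes the catalytic subunit of the same ligase. Its probe was dim, at 40.1, 37.6, 49.5 and 38.9 in wild-type, 37.2, 39.2, 31.7 and 30.8 in Sirt6-/- and 46.1, 39.6, 43.2 and 35.1 in Sirt6-/-RelA-/- cells. The 3 genotypes overlapped. Put into the fit in addition to the 6096 genes, Gclc was not called. It differed by -0.26 between Sirt6-/- and wild-type cells (standard error 0.12, limma adjusted p = 0.0934), by 0.24 with the further loss of RelA (adjusted p = 0.136) and by -0.02 between Sirt6-/-RelA-/- and wild-type cells (adjusted p = 0.933).

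Hmox1, heme oxygenase-1, which breaks down heme, was the member that rose in Sirt6-/- cells. Its intensities at 0, 1.5, 6 and 24 h were 213, 323, 307 and 257 in wild-type, 321, 327, 425 and 358 in Sirt6-/- and 273, 297, 372 and 291 in Sirt6-/-RelA-/- cells. The Sirt6-/- value was the highest of the 3 genotypes at every time, although it overlapped the wild-type values over the time course (the wild-type 1.5 h array exceeded the Sirt6-/- 0 h array). The difference from wild-type cells was 0.39 in log2 units, at 4 of 4 times, with a standard error of 0.11 (limma adjusted p = 0.0111), and was 0.33 without the wild-type 0 h array (adjusted p = 0.0248). Leaving out the 6 h arrays (adjusted p = 0.0816) or the 24 h arrays (adjusted p = 0.0533) ended the call. From Sirt6-/- to Sirt6-/-RelA-/- cells the difference was -0.22 (95% interval -0.45 to 0.02, adjusted p = 0.145), and from wild-type to Sirt6-/-RelA-/- cells it was 0.17 (adjusted p = 0.278).

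These were the calls of the group for the loss of Sirt6, Hmox1 higher and Gclm lower, 2 of 7 tested. Over all genes 42.2% were called in this comparison, 25.1% higher and 17% lower. The other 5 tested genes were not called. Txnrd1 differed by 0.29 (95% interval -0.03 to 0.61, adjusted p = 0.128), Srxn1 by -0.23 (adjusted p = 0.204), Nqo1 by 0.17 (adjusted p = 0.286), Prdx1 by 0.13 (adjusted p = 0.362) and Sod2 by 0.03 (95% interval -0.25 to 0.30, adjusted p = 0.885). Without the wild-type 0 h array these differences were 0.18 for Txnrd1, -0.10 for Srxn1, 0.07 for Nqo1, 0.08 for Prdx1 and -0.07 for Sod2, none of them called.

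**Figure D2:**
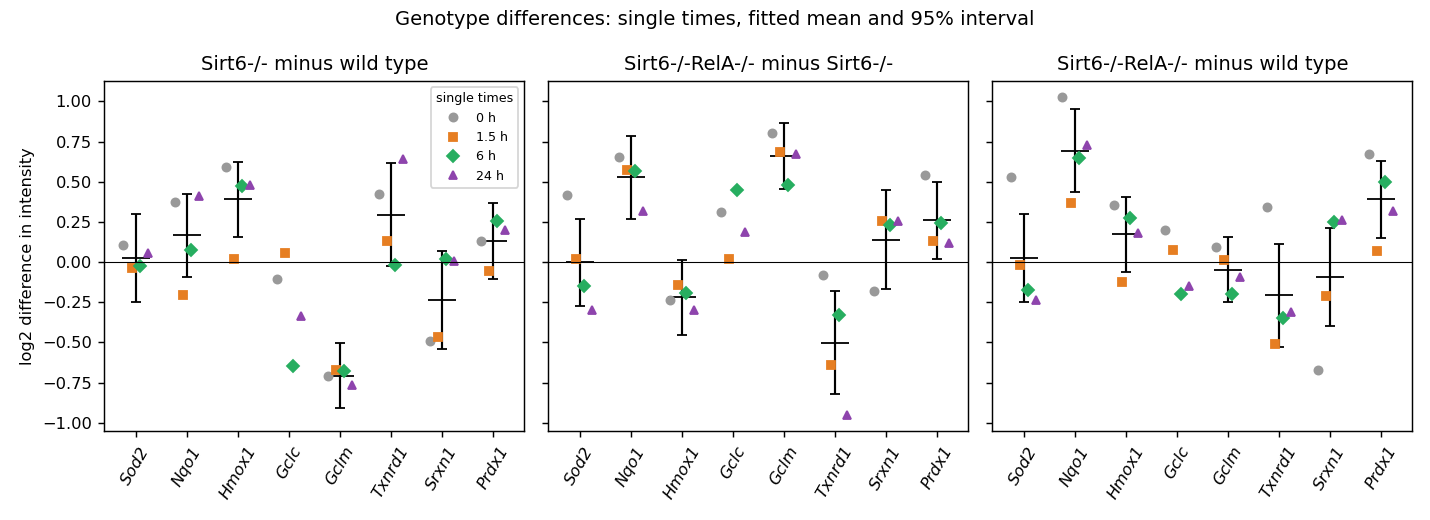
Difference in log2 intensity (y axis) between genotypes for each gene, with a symbol for each single time (1 array against 1 array) and a black bar and whiskers for the fitted mean and its 95% interval from limma. Gclc has single times only. Gclm lay between -0.67 and -0.76 at all 4 times for Sirt6-/- minus wild type, while Txnrd1 in Sirt6-/-RelA-/- minus Sirt6-/- cells ranged from -0.08 at 0 h to -0.95 at 24 h.

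Between Sirt6-/- and Sirt6-/-RelA-/- cells the quinone reductase Nqo1 and the thioredoxin reductase Txnrd1 differed in opposite directions. Nqo1 encodes NAD(P)H quinone dehydrogenase, the classical NRF2 target. Its intensities were 56.5, 79.4, 66.5 and 55.9 in wild-type, 73.4, 69.1, 70.2 and 74.3 in Sirt6-/- and 115, 103, 104 and 92.7 in Sirt6-/-RelA-/- cells. All 4 Sirt6-/-RelA-/- arrays lay above the 8 others. The difference was 0.53 from Sirt6-/- cells (standard error 0.12, adjusted p = 0.00484) and 0.69 from wild-type cells (standard error 0.12, adjusted p = 0.00158), each at 4 of 4 times. Because the filter was passed through these arrays, the fit with no filter matters here, and it gave adjusted p of 0.0456 and 0.0313 over 16593 genes. Without the wild-type 0 h array the difference from wild-type cells was 0.60 (adjusted p = 0.00285). A second Nqo1 probe, at 4.64 to 19.9 on all arrays, was too dim to compare.

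Txnrd1 encodes cytosolic thioredoxin reductase, which keeps thioredoxin reduced. Its intensities were 362, 621, 664 and 516 in wild-type, 486, 681, 655 and 804 in Sirt6-/- and 459, 436, 521 and 415 in Sirt6-/-RelA-/- cells. Sirt6-/- and Sirt6-/-RelA-/- cells were close at 0 h and apart under TNF-α, when every Sirt6-/-RelA-/- value was below the Sirt6-/- value of the same time. The fall from Sirt6-/- to Sirt6-/-RelA-/- cells was -0.50 in log2 units at 4 of 4 times, with a standard error of 0.15 (limma adjusted p = 0.0208). This call held in 16 of 25 alternative settings. It was lost with no filter (adjusted p = 0.161) and without the 1.5, 6 or 24 h arrays (adjusted p = 0.103, 0.0520 and 0.139). It was also lost without any 1 of 5 single arrays, the Sirt6-/- arrays at 1.5 h (adjusted p = 0.0531) and 24 h (0.0917) and the Sirt6-/-RelA-/- arrays at 1.5 h (0.0815), 6 h (0.0551) and 24 h (0.0896). Against wild-type cells the difference was -0.21 (95% interval -0.53 to 0.11, adjusted p = 0.341), and without the wild-type 0 h array -0.32 (adjusted p = 0.131).

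Prdx1, a peroxiredoxin that reduces hydrogen peroxide with electrons from thioredoxin, was highest in Sirt6-/-RelA-/- cells. Its intensities were 6340, 8705, 7181 and 7394 in wild-type, 6936, 8365, 8565 and 8481 in Sirt6-/- and 10091, 9146, 10154 and 9224 in Sirt6-/-RelA-/- cells. The Sirt6-/-RelA-/- arrays lay above all the others. The difference was 0.39 from wild-type cells (standard error 0.11, adjusted p = 0.0251, higher at 4 of 4 times) and 0.26 from Sirt6-/- cells (adjusted p = 0.0918). The call against wild-type cells held in 15 of 25 alternative settings and fell to 0.09 after quantile normalization (adjusted p = 0.543) and to 0.01 with the mean over probes (adjusted p = 0.964). It was lost without the wild-type 6 h array (adjusted p = 0.0968) and without the Sirt6-/-RelA-/- 0 h or 6 h array (0.0914 and 0.0865), and without the wild-type 0 h array it was 0.34 (adjusted p = 0.0444). A second, dim Prdx1 probe at 73.2 to 133 ran the opposite way, by -0.37 (standard error 0.16, adjusted p = 0.120). The direction of Prdx1 therefore rests on 1 probe.

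Srxn1, sulfiredoxin, which repairs overoxidized peroxiredoxins, was not called in any comparison. Its brightest probe read 312, 279, 248 and 243 in wild-type, 222, 202, 251 and 244 in Sirt6-/- and 196, 241, 294 and 292 in Sirt6-/-RelA-/- cells. Its other probes read 174 to 234 and 56.7 to 123. All 3 genotypes overlapped on each probe.

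Between Sirt6-/- and Sirt6-/-RelA-/- cells, the called genes were thus Gclm and Nqo1, higher, and Txnrd1, lower, 3 of 7 tested where 31.1% of all genes were called (16.1% higher, 15% lower). Between wild-type and Sirt6-/-RelA-/- cells they were Nqo1 and Prdx1, both higher, 2 of 7 tested where 20.6% of all genes were called (15.3% higher, 5.31% lower). Nqo1 is in both counts although it passed the filter through the genotype in which it is high, so that neither count is read against these shares. The differences not called here were, without the wild-type 0 h array, -0.07 for Gclm, 0.11 for Hmox1, -0.07 for Sod2 and 0.05 for Srxn1. Of all calls in that comparison 74.2% were higher, a share that was 59.3% after quantile normalization and 59.9% after centring each array on its median. Arrays of the genotypes compared did not overlap for Gclm between Sirt6-/- and wild-type cells (34.9% of all genes did not), for Gclm, Nqo1 and Prdx1 between Sirt6-/-RelA-/- and Sirt6-/- cells (33.4%), and for Nqo1 and Prdx1 between Sirt6-/-RelA-/- and wild-type cells (20.7%). Where Nqo1 is among them, the genes without overlap are not read against these shares either, because of the same filter. The Sirt6-/-RelA-/- arrays also carried the Y-linked transcript Eif2s3y, which the others did not, so that the sex of the cells and the RelA deletion cannot be told apart in these comparisons.

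Sod2 ran in opposite directions over the time course with and without RelA, while its mean over the 4 times passed no test between genotypes. Its intensities at 0, 1.5, 6 and 24 h were 1702, 2303, 2371 and 2207 in wild-type cells. They were 1835, 2247, 2331 and 2298 in Sirt6-/- cells and 2452, 2278, 2100 and 1870 in Sirt6-/-RelA-/- cells. In the genotypes that carry RelA every TNF-α array lay above the 0 h array, by 29.7 to 39.3% in wild-type and 22.4 to 27.1% in Sirt6-/- cells. Every TNF-α array of Sirt6-/-RelA-/- cells lay below the 0 h array, with a change of -23.7% at 24 h. Sirt6-/-RelA-/- cells had the highest Sod2 of the 3 genotypes at 0 h and the lowest at 24 h. Each of these is a difference of single arrays. Averaged over the times, Sirt6-/-RelA-/- cells differed from wild-type cells by 0.02 in log2 units (95% interval -0.25 to 0.30, limma adjusted p = 0.912) and from Sirt6-/- cells by -0.00 (95% interval -0.28 to 0.27).

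Responses to TNF-α were tested in a fit with shared time terms for wild-type and Sirt6-/- cells, here called RelA-bearing cells, and separate ones for Sirt6-/-RelA-/- cells, which left 3 residual degrees of freedom. In this fit Sod2 differed from 0 h in RelA-bearing cells by 0.36 at 1.5 h, 0.41 at 6 h and 0.35 at 24 h on the log2 scale (standard error 0.16 at each), with adjusted p of 0.402, 0.374 and 0.436. Without the wild-type 0 h array these differences were 0.31, 0.36 and 0.30. The response of Sirt6-/-RelA-/- cells minus that of RelA-bearing cells was -0.47, -0.64 and -0.74 (standard error 0.27, adjusted p = 0.927, 0.983 and 0.694). At 24 h the 95% interval of that difference was -1.33 to -0.15 before adjustment for the number of genes. Nfkbia, the NF-κB inhibitor that NF-κB itself induces, was called in RelA-bearing cells at all 3 times, with 2.50, 2.30 and 2.03 (adjusted p = 4.34e-05, 6.20e-05 and 0.000165). In Sirt6-/-RelA-/- cells Nfkbia still lay above its 0 h array, by 120, 105 and 59.4% at 1.5, 6 and 24 h. The difference of the Nfkbia response in Sirt6-/-RelA-/- cells, -1.36, -1.27 and -1.35, was not called either. The median of all genes for the difference at 1.5 and 24 h was -0.10.

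**Figure D3:**
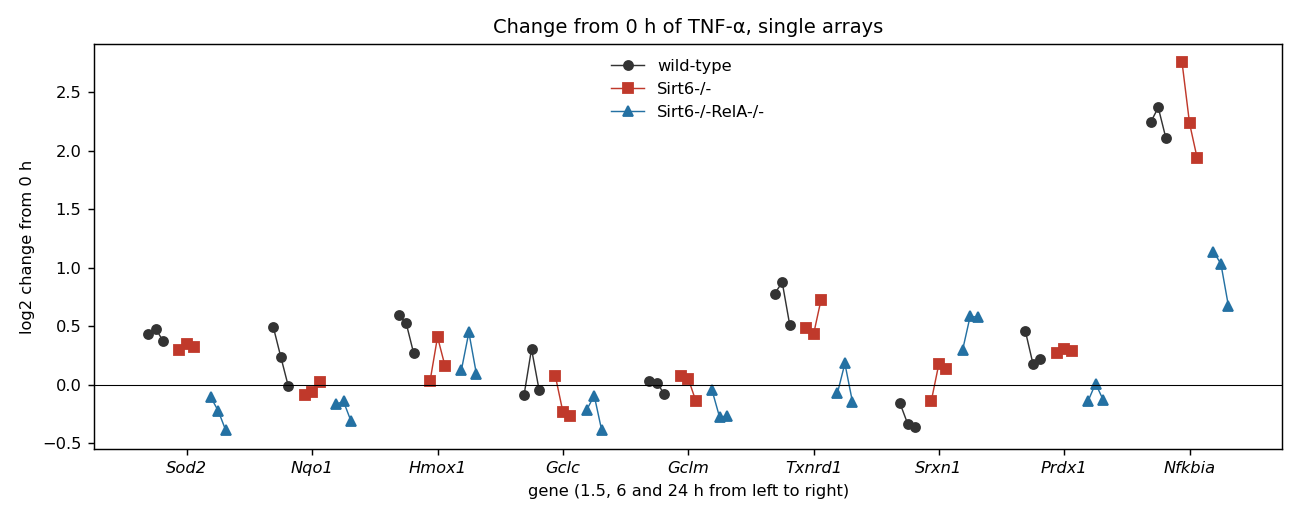
Change in log2 intensity from the 0 h array of the same genotype (y axis) at 1.5, 6 and 24 h of TNF-α (left to right within each line) for the 8 genes and Nfkbia, with 1 line for each genotype and each point a difference of 2 single arrays. Sod2 lies above 0 in wild-type and Sirt6-/- cells and below 0 in Sirt6-/-RelA-/- cells, and no change of the 8 genes is as large as that of Nfkbia in the genotypes that carry RelA.

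Txnrd1 had the largest response of the group in RelA-bearing cells. Its intensity lay above 0 h on every TNF-α array of these genotypes, by 42.5 to 83.4% in wild-type and 34.7 to 65.5% in Sirt6-/- cells, whereas in Sirt6-/-RelA-/- cells the changes from 0 h were -5.10, 13.4 and -9.59%. The fitted responses in RelA-bearing cells were 0.63, 0.65 and 0.62 (standard error 0.19), with adjusted p of 0.276, 0.198 and 0.190. Without the wild-type 0 h array they were 0.55, 0.57 and 0.53. The difference in Sirt6-/-RelA-/- cells was -0.71, -0.47 and -0.76 (standard error 0.33) and was not called.

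Hmox1 was above its 0 h level on every TNF-α array of all 3 genotypes. In wild-type cells the change was 51.2% at 1.5 h, 43.8% at 6 h and 20.3% at 24 h. It was 1.94, 32.6 and 11.6% in Sirt6-/- and 8.81, 36.3 and 6.62% in Sirt6-/-RelA-/- cells. At 6 h the genotypes with and without RelA had much the same change, and the fitted difference between them was -0.02 (95% interval -0.70 to 0.66). This interval is too wide to call the responses alike.

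On its brightest probe Prdx1 lay 13.3 to 37.3% above 0 h in wild-type, 20.6 to 23.5% above in Sirt6-/- and changed by -9.37 to 0.62% in Sirt6-/-RelA-/- cells. The second, dim Prdx1 probe read 77.2, 133, 109 and 122 in wild-type, 102, 78.0, 92.9 and 104 in Sirt6-/- and 94.2, 77.9, 73.2 and 91.2 in Sirt6-/-RelA-/- cells. The rise in Sirt6-/- cells therefore rests on 1 probe. The Srxn1 probes disagreed over the time course. The brightest lay below 0 h on every TNF-α array of wild-type cells (-22.1% at 24 h) and above 0 h on every one of Sirt6-/-RelA-/- cells (48.9% at 24 h). The second probe, of similar brightness, read 174, 210, 225 and 224 in wild-type and 232, 234, 217 and 193 in Sirt6-/-RelA-/- cells, and the third read 67.6, 83.5, 85.7 and 85.0 in wild-type cells, so that no direction is given for Srxn1. Gclm and Nqo1 lay below 0 h at all 3 times in Sirt6-/-RelA-/- cells (-17.1% and -19.5% at 24 h) and showed no one direction in the other genotypes.

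None of the 7 tested genes was called for the response of RelA-bearing cells at 1.5, 6 or 24 h, where 0.853%, 1.23% and 1.82% of all genes were. At an unadjusted p under 0.05 there were 3 (Prdx1, Sod2 and Txnrd1), 3 (Hmox1, Sod2 and Txnrd1) and 2 (Sod2 and Txnrd1) of 7, where 12.3%, 9.76% and 11.2% of all genes passed. None was called for the difference in Sirt6-/-RelA-/- cells, where 0.0656%, 0.0984% and 0.164% of all genes were, and 0, 1 (Sod2) and 2 (Sod2 and Txnrd1) passed unadjusted, where 3.08%, 3.10% and 6.68% of all genes did. Sod2, Hmox1, Txnrd1 and, on its brightest probe, Prdx1 were above 0 h at all 3 times in both RelA-bearing genotypes, a pattern of 936 of 6096 genes (15.4%). Sod2, Nqo1 and Gclm were below 0 h at all 3 times in Sirt6-/-RelA-/- cells, a pattern of 1762 genes (28.9%). Sod2 alone of the group met both, as did 261 genes (4.28%). The times share their 0 h array within a genotype.

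Across the 12 arrays the 8 genes did not move as a block. The highest Pearson correlations of log2 intensity were 0.87 between Nqo1 and Prdx1, 0.70 between Hmox1 and Txnrd1, 0.69 between Gclc and Gclm and 0.64 between Sod2 and Txnrd1, and the lowest was -0.60 between Hmox1 and Gclm. These are descriptions over 12 arrays that share genotypes and times. Among all tested genes, the patterns most like that of Gclm were those of Sfn, Atf4 and Igfbp4 (r = 0.98 each). Those most like Txnrd1 were Ch25h (0.92), Icam1 (0.89) and Angptl4 (0.89), and those most like Hmox1 were Nupr1 (0.93), Has2 (0.92) and Pgam5 (0.90). Sod2 was most like Psmd7 (0.86), Supv3l1 (0.85) and Mrpl38 (0.85). Nqo1 and Prdx1 both had Slc35b1 among their closest (0.91 and 0.97), Nqo1 with Fbxo2 (0.92) and Dpagt1 (0.91) and Prdx1 with Sem1 (0.95) and Tnfaip1 (0.94). Srxn1 was most like Cdv3, Rap1gap2 and Ddx1 (0.90 each).

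The rest of the pathway was read from 8 lists of 65 further genes, of which 45 were tested. Between Sirt6-/- and wild-type cells 12 rose, 7 fell and 26 did not pass, 19 of 45 where 42.2% of all genes were called, with a median log2 difference of 0.12 where that of all genes was 0.06. Between Sirt6-/-RelA-/- and Sirt6-/- cells 8 rose and 9 fell (31.1% of all genes), and between Sirt6-/-RelA-/- and wild-type cells 11 rose and 6 fell (20.6% of all genes). Gpx3 is in each of these counts, and Mgst1 in the second. Both passed the filter only through genotypes in which they were high, so that the counts are not read against these shares. In these comparisons 22, 20 and 17 of the 45 were called without the wild-type 0 h array. The calls lost were those of Gpx1 (adjusted p = 0.0923) and Txnip (adjusted p = 0.0628) between Sirt6-/-RelA-/- and wild-type cells. Gained between Sirt6-/- and wild-type cells were Slc3a2, Blvra and Txnrd2. Between Sirt6-/-RelA-/- and Sirt6-/- cells they were Gpx4, Mafg and Nqo2, and between Sirt6-/-RelA-/- and wild-type cells Slc3a2 and Sod1. Slc3a2 went from -0.28 to -0.67 in Sirt6-/- cells (limma adjusted p = 0.000222). In Sirt6-/-RelA-/- cells its difference from wild-type cells went from -0.45 to -0.84 (adjusted p = 0.000139). None of the 45 was called by limma for a response to TNF-α at 1.5, 6 or 24 h. At an unadjusted limma p under 0.05, 8, 7 and 7 of the 45 passed in RelA-bearing cells, where 12.3%, 9.76% and 11.2% of all genes did. For the difference in Sirt6-/-RelA-/- cells 1, 0 and 2 passed, where 3.08%, 3.10% and 6.68% of all genes did.

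Of the regulators, 8 of 9 listed were tested, and 3 rose in Sirt6-/- cells, where 25.1% of all genes did. Bach1, the repressor of NRF2 target genes, was 59.7, 169, 156 and 252 in wild-type, 233, 441, 305 and 241 in Sirt6-/- and 108, 179, 203 and 180 in Sirt6-/-RelA-/- cells. It rose by 1.06 in log2 units in Sirt6-/- cells, with a standard error of 0.23 (limma adjusted p = 0.00267), although at 24 h the wild-type array was the higher. Without the wild-type 0 h array the difference was 0.81 (adjusted p = 0.00704). The further loss of RelA was followed by a difference of -0.85 (adjusted p = 0.0141). Sqstm1, the autophagy receptor p62 that binds KEAP1, differed by 0.59 and then by -0.51 (adjusted p = 0.000890 and 0.00366). Nfe2l1, the NRF2 relative NRF1, differed by 0.55 and then by -0.34 (adjusted p = 0.000648 and 0.0176). Mafk, a small MAF partner, fell from Sirt6-/- to Sirt6-/-RelA-/- cells (-0.52, adjusted p = 0.0204). Nfe2l2 itself ranged over 157 to 209 for wild-type cells, 133 to 179 for Sirt6-/- cells and 159 to 231 for Sirt6-/-RelA-/- cells. Keap1 was 340 to 421, 343 to 398 and 422 to 471 in the same order. Neither was called between genotypes. None of these regulators was called between Sirt6-/-RelA-/- and wild-type cells.

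**Figure D4:**
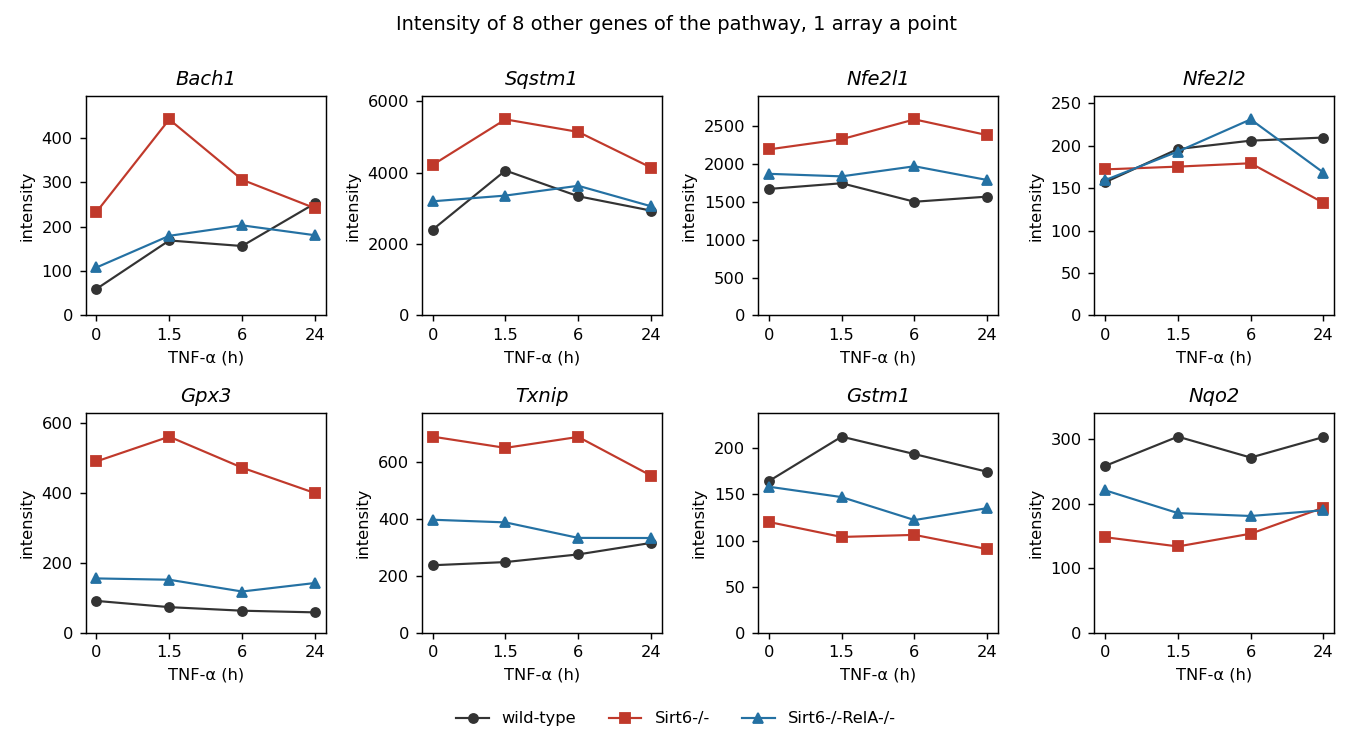
Intensity (linear, y axis from 0, a scale for each gene) of 8 other genes of the pathway at 0, 1.5, 6 and 24 h of TNF-α (x axis, evenly spaced), with 1 array a point and a line for each genotype. Gpx3 was 400 to 561 on the Sirt6-/- arrays against 58.3 to 91.1 on the wild-type arrays, and Gstm1 ran the other way, at 90.7 to 120 against 165 to 213.

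Among genes of glutathione use, Gpx3, the secreted glutathione peroxidase, had the largest difference of the list genes tested. Its intensities were 91.1, 73.3, 63.1 and 58.3 in wild-type, 490, 561, 472 and 400 in Sirt6-/- and 155, 152, 118 and 142 in Sirt6-/-RelA-/- cells. No genotypes overlapped. Sirt6-/- cells exceeded wild-type cells by 2.76 in log2 units, with a standard error of 0.12 (limma adjusted p = 2.00e-09), and Gpx3 differed by -1.76 from Sirt6-/- to Sirt6-/-RelA-/- cells (adjusted p = 2.49e-07). Between Sirt6-/-RelA-/- and wild-type cells it differed by 1.00 (adjusted p = 7.68e-05). Gpx8, a peroxidase of the endoplasmic reticulum, was higher by 0.44 in Sirt6-/- cells (adjusted p = 0.0170) and by 0.47 in Sirt6-/-RelA-/- cells (adjusted p = 0.0253) than in wild-type cells, and Gpx1, the cytosolic glutathione peroxidase, by 0.38 in the latter (adjusted p = 0.0427). Glrx, glutaredoxin, differed from wild-type cells by -0.62 in Sirt6-/- and -0.45 in Sirt6-/-RelA-/- cells (adjusted p = 0.00131 and 0.0207). Ggct, γ-glutamylcyclotransferase, differed by -0.83 and -0.48 in the same order (adjusted p = 0.000123 and 0.0136). From Sirt6-/- to Sirt6-/-RelA-/- cells its brightest probe differed by 0.35 (adjusted p = 0.0439) and its other probe by -0.16, so that this direction rests on 1 probe. Slc7a11, the cystine transporter that supplies glutathione synthesis, did not reach 100 and was not tested, at 49.7 to 70.1 for wild-type cells, 17.5 to 25.0 for Sirt6-/- cells and 32.7 to 60.3 for Sirt6-/-RelA-/- cells.

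The glutathione transferases, which conjugate electrophiles, split. Of 7 tested, 4 rose in Sirt6-/- cells (Mgst3 by 0.84, Gstm5 by 0.68, Gstm2 by 0.65 and Gsto1 by 0.30) and Gstm1 fell by 0.83, where 25.1% of all genes rose and 17% fell. Gstm1 was 165, 213, 194 and 175 in wild-type, 120, 104, 106 and 90.7 in Sirt6-/- and 158, 147, 122 and 135 in Sirt6-/-RelA-/- cells. Between Sirt6-/-RelA-/- and wild-type cells, a comparison with the same wild-type arrays, Mgst3 differed by 0.71, Gsto1 by 0.61, Gstm5 by 0.55, Gstm2 by 0.47 and Gstm1 by -0.41, each of them called (15.3% of all genes were higher and 5.31% lower). With the loss of RelA, Gstm1 differed by 0.42, Gsto1 by 0.30 and Mgst1, a membrane-bound transferase, by -0.56, the calls of this list there. Mgst1 read at most 96.1 on the Sirt6-/-RelA-/- arrays, so that it passed the filter through the other genotypes. Gstm genes are close paralogs, and their probes may share signal.

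In the thioredoxin list, Txnip, which binds and inhibits thioredoxin, rose by 1.26 in Sirt6-/- cells (adjusted p = 4.88e-06) and differed by -0.83 with the loss of RelA (adjusted p = 0.000283). The mitochondrial members Prdx3 and Txn2 fell in Sirt6-/- cells, by 0.45 and 0.40. Prdx3 rose by 0.48 with the loss of RelA, as did Prdx4, the peroxiredoxin of the endoplasmic reticulum, by 0.53 and mitochondrial Txnrd2 by 0.41 (0.05 on its other probe). Against wild-type cells, Sirt6-/-RelA-/- cells differed by 0.43 for Txnip, 0.35 for Prdx4 and -0.46 for Txn2. Of the NADPH-supplying enzymes, Me1 rose by 0.83 in Sirt6-/- cells and differed by -0.61 with the loss of RelA on its brightest probe, where a second probe differed by 4.31. Tkt, transketolase, rose by 0.51 with the loss of RelA, and was 0.51 higher than in wild-type cells as well. Among other detoxifying enzymes, Ephx1, an epoxide hydrolase, rose by 0.81 in Sirt6-/- cells, while Nqo2, a relative of Nqo1, fell by 0.86 and Cbr3, a carbonyl reductase, by 0.41. Against wild-type cells Sirt6-/-RelA-/- cells differed by 0.53 for Ephx1, -0.55 for Nqo2 and -0.42 for Cbr3, and with the loss of RelA Ephx1 differed by -0.28, all called. With all 12 arrays, neither Sod1, the cytosolic counterpart of Sod2, nor Cat, catalase, was called in any comparison. Without the wild-type 0 h array Sod1 was called between Sirt6-/-RelA-/- and wild-type cells (0.32, limma adjusted p = 0.0429). Of the heme and iron genes, 1 of 4 tested was called in any genotype comparison with all arrays. This was Blvra, biliverdin reductase A, which acts after heme oxygenase and rose by 0.52 with the loss of RelA (adjusted p = 0.00901). Between Sirt6-/- and wild-type cells Blvra differed by -0.29 (adjusted p = 0.0918), and by -0.46 without the wild-type 0 h array (adjusted p = 0.00183).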

How the data were processed

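Total RNA of MEFs was extracted with TRIzol, and Cy5-labelled cRNA was hybridized to Illumina mouse bead arrays, 1 for each of 12 conditions. The MEFs came from littermate embryos. The study lists more biological replicates for wild-type and Sirt6-/- expression arrays than for Sirt6-/-RelA-/- ones, and whether a deposited array stands for 1 or for several of them is not given in the sources used here. The deposited intensity values are linear, background subtracted and scaled by the authors with GenomeStudio, of which version and settings are not given in the sources used here. The number of arrays limits the precision. A table of unscaled signals was left out, since the names of its 12 signal columns match no sample. The planned fits on those signals and on their detection values were therefore not run. Of 25697 probes 1719 had no single gene symbol. Here values under 16 were set to 16 before log2, the brightest probe stood for a gene, and genes with at least 100 on 1 array were tested. A fit with genotype and time as terms (6 residual degrees of freedom) compared genotypes, and one in which Sirt6-/-RelA-/- cells had their own time terms (3 residual degrees of freedom) compared responses to TNF-α, with limma 3.58.1 in R 4.3.3, Benjamini-Hochberg adjustment and a threshold of 0.05. The genes and lists were chosen with earlier results of these data known. The text names the 8 genes, Sirt6, Rela and Nfkbia, the called list genes of largest difference (up to 3 each direction, list and comparison, a gene so named being given in other comparisons too) and the 3 genes most correlated with each member. Nfe2l2, Keap1, Slc7a11, Slc3a2, Gpx4, Mafg, Sod1, Cat, Eif2s3y and the markers under 16 were named beside these after their values were seen. Alternatives covered the floor, offset, scaling, filter, probes, variance prior, arrays in the fit and each array or time left out. The plots come from matplotlib 3.10.9 (Python 3.11.15).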

Additional observations from a re-analysis of the deposited data

Results flagged for a closer look

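For 2 of the 8 genes every TNF-α array of one genotype lay on one side of its 0 h array and every one of another genotype on the opposite side. The mean log2 response of Sod2 over 3 times in Sirt6-/-RelA-/- cells minus that in wild-type cells was -0.67, and minus that in Sirt6-/- cells it was -0.56. For Srxn1 the value in Sirt6-/-RelA-/- cells minus that in wild-type cells was 0.77 on the brightest probe. On the second Srxn1 probe the fitted response of Sirt6-/-RelA-/- cells minus that of RelA-bearing cells was -0.20, -0.28 and -0.45 at 1.5, 6 and 24 h, against 0.45, 0.66 and 0.69 on the brightest and 0.40, 0.44 and 0.88 on the third, so that the probes gave opposite directions. The difference between those pairs of genotypes was not tested, and the tested differences between Sirt6-/-RelA-/- and both RelA-bearing genotypes together were not called for either gene. All 3 responses of a genotype share its 0 h array.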

How the results depend on the processing

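No paired analysis was possible because every condition has a single array and all carry the same replicate number, so that no replicate number could serve as a block. Arrays of the genotypes are matched by time through the time term of the genotype fit. Of 1041 values of the 7 tested genes under alternatives, 1020 kept the side of the threshold, 21 lost a call and none gained one. No call changed sign. Values that were not called changed sign in places, such as Prdx1 between Sirt6-/- and wild-type cells after quantile normalization (-0.07). Gclm and Nqo1 kept their calls under every alternative run (Nqo1 was not tested at a minimum of 200), and the calls lost were those of Prdx1 (10), Txnrd1 (9) and Hmox1 (2). The members called between Sirt6-/-RelA-/- and wild-type cells were 1 with quantile normalization, no filter, a minimum of 200, the mean over probes and only the arrays compared, the last also giving 678 calls over all genes, and no filter 676, where 1254 were called. With no filter the calls for TNF-α at 1.5, 6 and 24 h were 2, 1 and 0 (of 52, 75 and 111), and those for its difference in Sirt6-/-RelA-/- cells 264, 427 and 448 (of 4, 6 and 10). That difference at 1.5 h gave 9 calls with an offset of 50, 1 with quantile normalization, 1 with the mean over probes and 9 with an intensity trend and robust prior, and one TNF-α response for all genotypes gave 16 at 1.5 h. The cause was not tested. Leaving out 1 time or array gave 1754 to 2730 calls (1 to 2 members) between Sirt6-/- and wild-type cells, 1144 to 2433 (2 to 3 members) between Sirt6-/-RelA-/- and Sirt6-/- cells and 484 to 1428 (1 to 2 members) between Sirt6-/-RelA-/- and wild-type cells, the latter pair lowest without the 6 h arrays. For TNF-α it gave 22 to 593 calls at 1.5 h, 34 to 340 at 6 h and 52 to 444 at 24 h, each highest without the Sirt6-/- 0 h array, and 0 members. Of the calls at 24 h 66.7% were higher, 60.2% after quantile normalization and 53.7% after centring.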

Other observations

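Of 14 genes of the group and its lists with several probes, 2 had probes whose genotype differences lay over 2 apart on the log2 scale, and both were named after their values were seen. For Prdx2, a cytosolic peroxiredoxin, the brightest probe ranged over 5439 to 6540 for wild-type cells, 6331 to 7608 for Sirt6-/- cells and 6014 to 7037 for Sirt6-/-RelA-/- cells. Of its other probes, the brighter was 366 to 417, 95.2 to 126 and 311 to 443, and the dimmer 98.2 to 160, 6.56 to 20.8 and 116 to 200. The dimmer probes were thus lower on every Sirt6-/- array than on any other, where the brightest was not. For Me1, malic enzyme, the brightest probe was 1022 to 1745, 2443 to 2826 and 1245 to 2140 in the same order. A second probe was 274 to 374 on the Sirt6-/-RelA-/- arrays and at most 9.55 on the 8 others. The probe sequences were not used here.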
